A study of Mus musculus with 6 samples.

Results

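The genes described here make cholesterol, move it out of macrophages, and take up and store lipid. Of 42 listed genes, 40 had a named probe set among the 25206 probe sets of the array: 18 sterol synthesis genes, 12 genes of the LXR and efflux arm, and 10 uptake and storage genes. They were listed by function, and each had 1 probe set. Nr1h2 of the LXR and efflux arm and Soat1 of the uptake and storage arm were not analysed here.

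RNA came from peritoneal macrophages of C57BL/6J mice, either Tet2-/- or wild-type littermates. Tet2 encodes a dioxygenase that oxidises methylated cytosine in DNA. All mice had been given thioglycollate, an irritant that draws macrophages into the peritoneal cavity, 4 days before the cells were collected, and the cells were plated without any other treatment for 10 h. Each genotype had 3 arrays, numbered 4, 5 and 6 in the sample titles and called biological replicates there. Whether each is a separate animal is not stated outright, so each p-value reflects the spread among these arrays, which may be partly technical. The labels do not name the age or sex of the mice or the design of the Tet2 allele.

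The title and the genotype field contradicted each other for 4 of the 6 samples. Genotype was taken from the title throughout, and every direction below rests on that choice. When the genotype field was used instead, 0 of 40 members and 1.64% of all probe sets had an unadjusted p under 0.05. The 15 of 18 lower synthesis genes became 8 of 18. Macrophage markers were present in every array, with Adgre1, which encodes F4/80, between log2 levels of 7.79 and 8.90. The adipocyte marker Adipoq lay between 1.16 and 1.59. Median log2 levels over all probe sets ran from 2.765 to 2.93 between arrays, and Tet2-/- replicate 6 had the highest median and the lowest mean correlation with the other arrays (0.982).

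Cells regulate cholesterol by a pair of opposed programmes. When sterol in the endoplasmic reticulum is low, SREBP-2 (encoded by Srebf2) is released from its anchor and switches on the enzymes that build cholesterol from acetyl-CoA, and the promoters of these genes often pair a sterol regulatory element with a CCAAT box, the binding sequence of NF-Y. When sterol is plentiful, oxysterols activate the liver X receptors, of which LXR alpha is encoded by Nr1h3, and these drive cholesterol export and fatty acid synthesis. Macrophages also take in modified lipoproteins through scavenger receptors, and lipid that is not exported is kept in droplets.

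Over the whole array, limma called 0 of 25206 probe sets (0%) at a Benjamini-Hochberg adjusted p under 0.05, and 910 (3.61%) had an unadjusted p under 0.05. No member passed, and each had an adjusted p of 0.998. Of the 40 members, 4 (10%) had an unadjusted p under 0.05: Mvd and Lpl were lower in Tet2-/-, and Apoc1 and Apoc2 were higher. The background for those directions was 1.9% of all probe sets lower and 1.71% higher. All 40 members were above the median level of all probe sets. Of the 12597 probe sets above it, 4.41% had an unadjusted p under 0.05 (298 lower and 258 higher). In 3 members (Mvd, Lpl and Cd36) every Tet2-/- array lay below every wild-type array, which held for 4.07% of all probe sets. In 2 members (Apoc1 and Apoc2) every Tet2-/- array lay above, which held for 3.33%. The count of 4 became 11 when Tet2-/- replicate 6 was left out, 1 when wild-type replicate 5 was, and 0 when Tet2-/- replicate 5 was. The share of all probe sets at that threshold was 9.87%, 2.51% and 3.19% in the same settings. All differences below are Tet2-/- minus wild-type on the log2 scale.

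**Figure D1:**
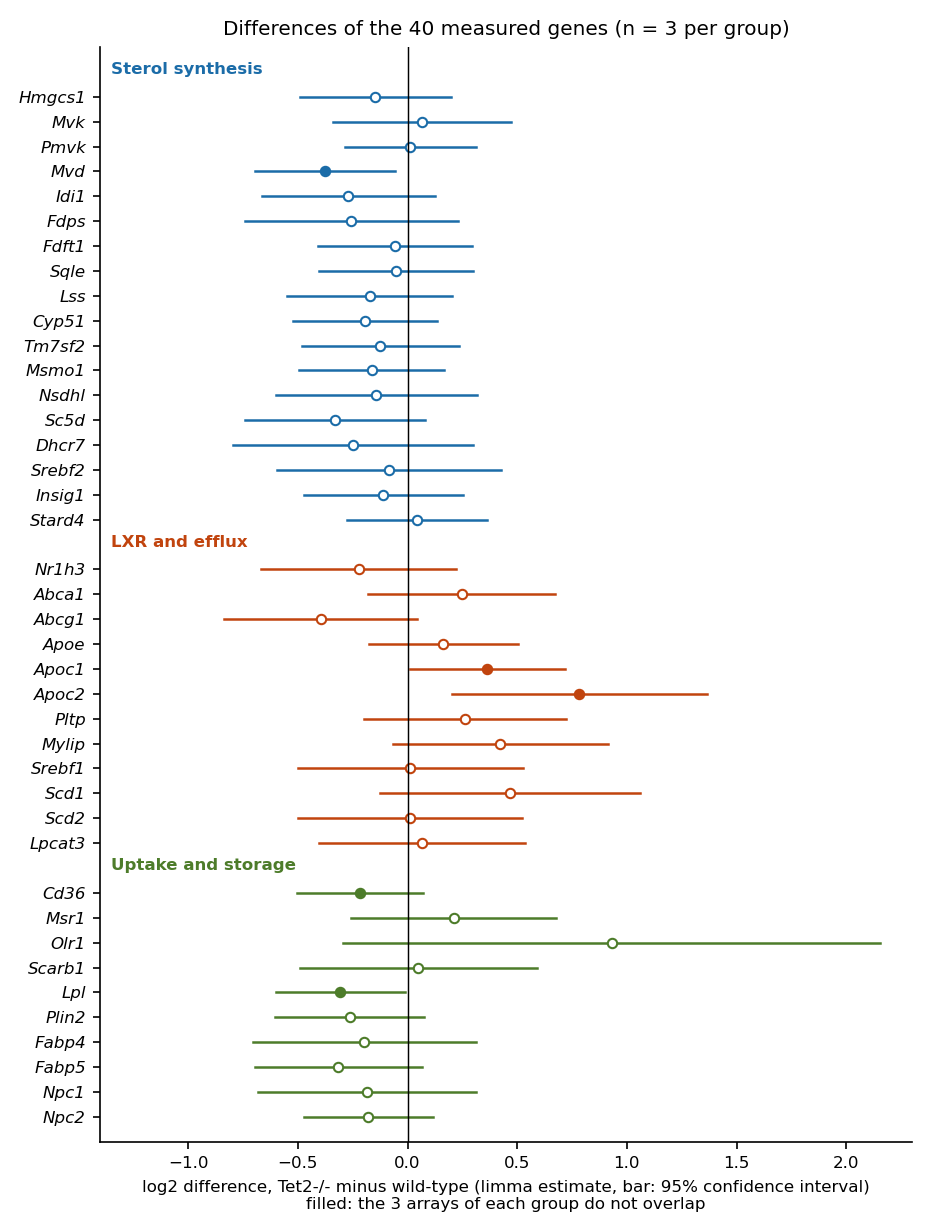
Log2 difference, Tet2-/- minus wild-type, of each of the 40 measured genes (point, limma estimate; bar, 95% confidence interval; 3 arrays per group), with filled points where the arrays of the groups did not overlap. The synthesis genes lie mostly left of 0, from -0.38 (Mvd) to 0.07 (Mvk), and the apolipoprotein genes Apoc1 and Apoc2 lie to the right at 0.36 and 0.78.

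Of 18 sterol synthesis genes, 15 had a lower mean in Tet2-/- and 3 (Mvk, Pmvk and Stard4) a higher one, with a median difference of -0.145. Over all probe sets 49.98% were lower and the median difference was 0. The estimates of single genes lay between -0.38 and 0.07. Their 95% confidence intervals were wide and lay between -0.80 and 0.47, so larger differences are not excluded. The mean deviations of the arm from its average over the 6 arrays overlapped between the groups, since Tet2-/- replicate 4 (0.01) lay above wild-type replicate 6 (-0.03). The median was -0.034 without Tet2-/- replicate 6, when 12 of 18 genes were lower.

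The mevalonate steps convert acetyl-CoA units to the isoprenoid farnesyl pyrophosphate. Mvd, the decarboxylase that makes isopentenyl pyrophosphate, stood at log2 levels of 6.03, 6.23 and 5.95 in wild-type replicates 4, 5 and 6, and at 5.64, 5.60 and 5.84 in Tet2-/- replicates 4, 5 and 6. All Tet2-/- arrays were below all wild-type arrays. The difference was -0.38 ± 0.14 (SE, n = 3 per group), or 0.770 times the wild-type level, with a limma unadjusted p of 0.0253 and an adjusted p of 0.998. Leaving out any 1 array gave differences between -0.45 and -0.30.

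Idi1, which isomerises that product to dimethylallyl pyrophosphate, stood at 4.34, 4.70 and 4.34 in wild-type and at 3.95, 4.16 and 4.46 in Tet2-/-. Replicates 4 and 5 of Tet2-/- were below all wild-type arrays, and replicate 6 lay within their range. The difference was -0.27 ± 0.17 (SE). Hmgcs1, the HMG-CoA synthase at the entry to the pathway, differed by -0.15 ± 0.15, and Fdps, the farnesyl pyrophosphate synthase, by -0.26 ± 0.21. The kinases Mvk (0.07) and Pmvk (0.01) sat close to 0, so 4 of the 6 mevalonate genes were lower, with a median of -0.20.

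The squalene and lanosterol steps had a median of -0.06, the smallest of the 3 groups of enzymes. Fdft1, squalene synthase, differed by -0.06, Sqle, squalene epoxidase, by -0.05, and Lss, lanosterol synthase, by -0.17. The groups overlapped for all 3 genes, and wild-type replicate 4 held the highest value of each.

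All 6 enzymes that act after lanosterol had lower means in Tet2-/-, between -0.12 and -0.33, and their groups overlapped. Sc5d, the sterol C5 desaturase, stood at 7.54, 7.76 and 7.58 in wild-type and at 7.65, 6.99 and 7.25 in Tet2-/-. Replicate 4 of Tet2-/- lay inside the wild-type range, and replicates 5 and 6 lay below it. The difference was -0.33 ± 0.18 (SE). Cyp51, lanosterol demethylase, stood at 6.51, 6.73 and 6.56 in wild-type and at 6.44, 6.57 and 6.21 in Tet2-/-, where replicates 4 and 6 were below the lowest wild-type array. Its difference was -0.19 ± 0.15 (SE). Dhcr7, the last reductase of the pathway, differed by -0.25, between -0.51 without Tet2-/- replicate 4 and -0.025 without Tet2-/- replicate 6. The others differed less: Msmo1, the sterol C4 methyl oxidase, by -0.16, Nsdhl, a sterol dehydrogenase, by -0.14, and Tm7sf2, a sterol reductase, by -0.12.

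The regulators lay nearer to 0 than most of these enzymes. Srebf2, the SREBP-2 gene, differed by -0.08 ± 0.23 (SE), Insig1, which retains the SREBP precursor in the endoplasmic reticulum, by -0.11 ± 0.16, and Stard4, a sterol carrier, by 0.04 ± 0.14. Replicate 6 of Tet2-/- was the lowest array for all 3. Without it their differences were 0.16, 0.03 and 0.11.

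The promoters of the synthesis genes were read for the elements named above. RefSeq promoter windows on GRCm38.p6, from 250 bases before to 50 after the annotated start, matched 26 of the 40 members, of which 14 were synthesis genes. Motifs were searched on both strands as TCACNCCAC for the core of the sterol regulatory element, CCAAT for the CCAAT box, and a repeat of AGGTCA in the same direction with 4 bases between for the LXR-type direct repeat. Hmgcs1 was the 1 synthesis gene of 14 with the sterol core, which 1.24% of all 32851 promoters held. A CCAAT box was found in 14 of 14 synthesis genes with a window. It was in 37.4% of all promoters, 41.1% of 27025 genes and 42.3% of the 9213 genes whose probe sets were above the median level. The 4 uptake and storage genes with a window all held one too. The synthesis windows held 29 boxes, of which 17 in 11 genes lay within 100 bases before the start. The direct repeat was in none of these 26 genes, in 0 of the 9213 genes above the median level and in 5 of all promoters. An exact repeat this rare could hardly be met among 26 genes, so its absence says nothing about LXR binding. A match is a run of letters, and its use in these cells was not measured.

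The Hmgcs1 sequence is shown because it holds the only sterol core among the 26 genes with a window. Mvd is shown because its arrays separated by genotype, a choice made after its values were seen. Each line gives the 250 bases before the start, 5′ to 3′ on the gene's strand. Hmgcs1 is on the plus strand at chr13:119690101-119690350 and Mvd on the minus strand at chr8:122443423-122443672. Capitals mark the sterol core and CCAAT boxes, which read ATTGG where the box is on the opposite strand.
Hmgcs1: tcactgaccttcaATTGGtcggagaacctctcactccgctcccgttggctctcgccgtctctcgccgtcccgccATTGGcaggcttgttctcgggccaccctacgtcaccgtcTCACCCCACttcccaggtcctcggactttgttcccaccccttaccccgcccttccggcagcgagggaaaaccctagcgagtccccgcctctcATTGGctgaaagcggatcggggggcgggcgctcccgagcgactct
Mvd: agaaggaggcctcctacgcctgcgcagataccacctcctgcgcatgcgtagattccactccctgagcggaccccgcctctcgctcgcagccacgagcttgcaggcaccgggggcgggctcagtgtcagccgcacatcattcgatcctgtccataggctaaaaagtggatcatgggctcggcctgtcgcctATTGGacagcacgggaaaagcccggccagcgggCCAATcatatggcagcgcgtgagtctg
In Hmgcs1 the core runs from 137 to 129 bases before the start and overlaps none of its CCAAT boxes. In Mvd the boxes begin 60 and 27 bases before the start, on opposite strands.

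**Figure D2:**
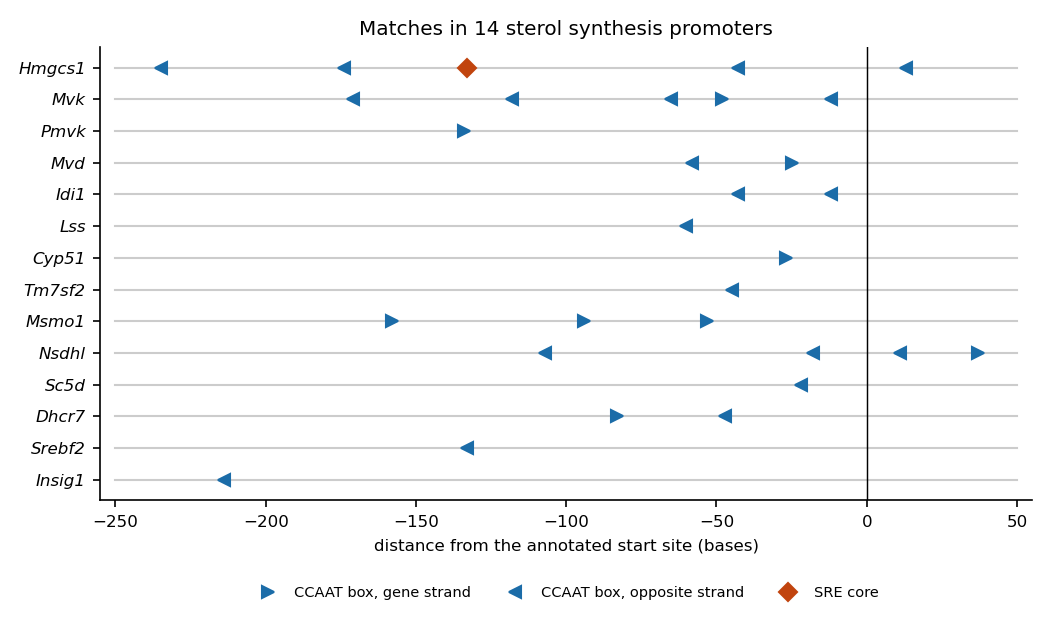
Positions of CCAAT boxes (triangles, pointing right on the gene's strand and left on the opposite strand) and of the sterol core (diamond) in 14 sterol synthesis promoters, by distance in bases from the annotated start. Every gene has at least 1 CCAAT box, Mvk has 5, and Hmgcs1 alone has the sterol core.

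Of 12 measured LXR and efflux genes, 10 had a higher mean in Tet2-/- and 2 (Nr1h3 and Abcg1) a lower one, with a median difference of 0.205. The direction was not shared by the receptor and 1 of its classic transporters. The median was 0.13 without wild-type replicate 5, 0.135 without Tet2-/- replicate 4 and 0.11 without Tet2-/- replicate 5.

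The receptor gene Nr1h3 stood at 6.66, 7.04 and 7.31 in wild-type and at 7.05, 6.60 and 6.69 in Tet2-/-, a difference of -0.22 ± 0.20 (SE). Its groups overlapped. Of the exporters, Abca1 loads cholesterol onto lipid-poor apolipoprotein A-I and Abcg1 onto mature HDL. Abcg1 stood at 7.08, 6.88 and 6.66 in wild-type and at 6.83, 6.44 and 6.16 in Tet2-/-. Replicates 5 and 6 of Tet2-/- were below all wild-type arrays, and the difference was -0.40 ± 0.19 (SE, limma unadjusted p = 0.0717, adjusted p = 0.998). Abca1 differed in the opposite direction, by 0.25 ± 0.19 (SE), at 6.43, 6.07 and 6.60 in wild-type against 6.34, 6.87 and 6.63 in Tet2-/-.

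The apolipoprotein and lipid transfer genes were all 4 higher, with a median of 0.31. Apoc2, the activator of lipoprotein lipase, stood at 9.09, 9.18 and 8.96 in wild-type and at 10.11, 10.27 and 9.20 in Tet2-/-. Replicates 4 and 5 of Tet2-/- were far above the wild-type arrays, whereas replicate 6 was barely above the highest of them. The difference was 0.78 ± 0.26 (SE), or 1.72-fold, with a limma unadjusted p of 0.0139 and an adjusted p of 0.998. Without Tet2-/- replicate 6 it was 1.11 with an adjusted p of 0.0394, and without Tet2-/- replicate 5 it was 0.58. Over the 13 other settings its adjusted p ran from 0.0394 to 1 and passed 0.05 only without Tet2-/- replicate 6, and no other member passed in any of them. The difference was 0.0033 when the genotype field set the groups.

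Apoc1, which sits in the same gene cluster, stood at 3.93, 3.91 and 3.62 in wild-type and at 4.12, 4.40 and 4.03 in Tet2-/-. The groups did not overlap, and the difference was 0.36 ± 0.16 (SE, limma unadjusted p = 0.0446, adjusted p = 0.998). Apoe, the main apolipoprotein that macrophages secrete, stood at 11.55, 11.44 and 11.30 in wild-type and at 11.70, 11.72 and 11.36 in Tet2-/-, a difference of 0.16 ± 0.15 (SE) with overlapping groups. Apoc2, Apoc4, Apoc1 and Apoe lie next to each other on chromosome 7 with no other protein-coding gene between them, and Apoc4 differed by 0.09, between -0.15 without Tet2-/- replicate 5 and 0.41 without Tet2-/- replicate 6. Outside the cluster, Pltp, the phospholipid transfer protein, differed by 0.26 ± 0.20 (SE).

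The promoter of Apoc2 is shown because this gene had the smallest p of all members, a choice made after the values were seen. It lies on the minus strand at chr7:19677942-19678191 and held no match to any of the 3 motifs, so it has no capitals. Of the 8 LXR and efflux genes with a window, 4 had a CCAAT box (Lpcat3, Mylip, Pltp and Srebf1) and 4 had none (Abca1, Apoc2, Apoe and Nr1h3).
Apoc2: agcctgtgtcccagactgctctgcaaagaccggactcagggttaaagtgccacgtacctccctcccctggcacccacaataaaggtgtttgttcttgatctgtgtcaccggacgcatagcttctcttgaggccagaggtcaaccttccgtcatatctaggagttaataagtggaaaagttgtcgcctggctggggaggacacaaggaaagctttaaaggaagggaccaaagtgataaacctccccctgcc

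Mylip encodes IDOL, a ligase that marks the LDL receptor for degradation. It stood at 6.19, 5.94 and 5.82 in wild-type and at 6.39, 6.84 and 5.99 in Tet2-/-, where replicates 4 and 5 exceeded all wild-type arrays. The difference was 0.42 ± 0.22 (SE). The fatty acid genes of the arm had a median of 0.04. Scd1, a stearoyl-CoA desaturase, differed by 0.47 ± 0.26 (SE), whereas its paralogue Scd2 (0.01), Srebf1, the SREBP-1 gene (0.01), and Lpcat3, which puts polyunsaturated chains into phospholipids (0.07), were near 0.

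**Figure D3:**
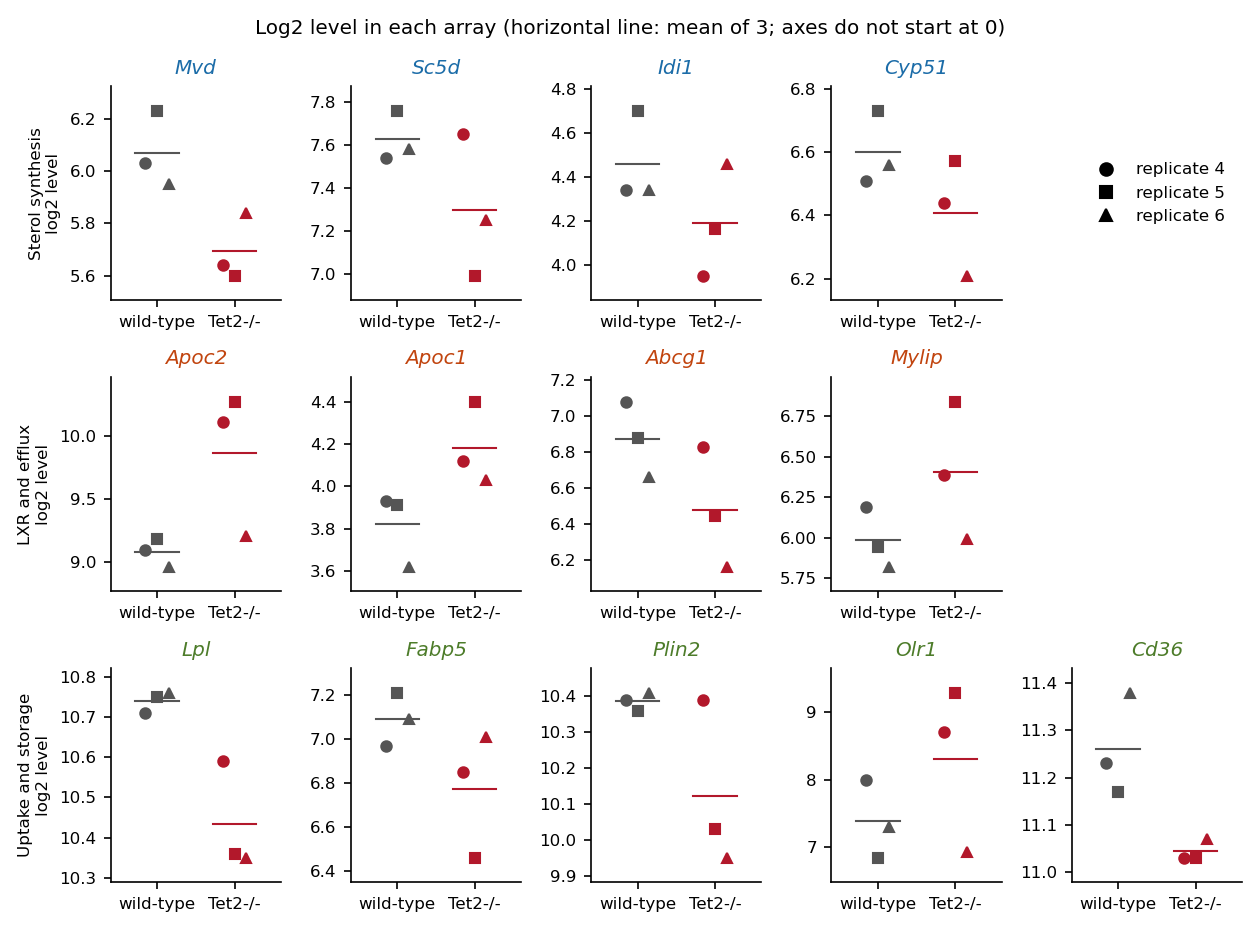
Log2 level of 13 genes in each array (symbols, replicate 4, 5 or 6) with the mean of 3 arrays as a line; vertical axes differ between panels and do not start at 0. The arrays of the groups do not overlap for Mvd, Apoc2, Apoc1, Lpl and Cd36, and Tet2-/- replicate 6 lies near the wild-type arrays for Apoc2 and Olr1.

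Of 10 measured uptake and storage genes, 7 had a lower mean in Tet2-/- and 3, the receptors Msr1, Olr1 and Scarb1, a higher one, with a median of -0.19. The receptor Cd36 and all 6 genes outside the receptors had lower means, of which Npc1 turned to 0.05 without Tet2-/- replicate 6.

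Among the receptors, Cd36, which binds oxidised LDL and fatty acids, stood at 11.23, 11.17 and 11.38 in wild-type and at 11.03, 11.03 and 11.07 in Tet2-/-. All Tet2-/- arrays were below all wild-type arrays, yet the difference was small at -0.22 ± 0.13 (SE, limma unadjusted p = 0.121, adjusted p = 0.998). Olr1, the oxidised LDL receptor LOX-1, stood at 8.0, 6.84 and 7.30 in wild-type and at 8.71, 9.29 and 6.93 in Tet2-/-. Replicates 4 and 5 of Tet2-/- were the highest arrays, and replicate 6 lay inside the wild-type range. Its difference of 0.93 ± 0.54 (SE) was the largest of the 40 members, and it ranged from 0.44 without Tet2-/- replicate 5 to 1.62 without Tet2-/- replicate 6. Msr1, scavenger receptor A, differed by 0.21 ± 0.21 (SE), and Scarb1, the HDL receptor, by 0.05 ± 0.24.

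Lpl, the lipase that releases fatty acids from triglyceride-rich lipoproteins, stood at 10.71, 10.75 and 10.76 in wild-type and at 10.59, 10.36 and 10.35 in Tet2-/-. The wild-type arrays lay within a narrow band, and all Tet2-/- arrays were below it. The difference was -0.31 ± 0.13 (SE), or 0.809 times the wild-type level, with a limma unadjusted p of 0.0433 and an adjusted p of 0.998. Its activator gene Apoc2 differed in the opposite direction.

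Plin2, the coat protein of lipid droplets, stood at 10.39, 10.36 and 10.41 in wild-type and at 10.39, 10.03 and 9.95 in Tet2-/-, where replicate 4 equalled a wild-type array. The difference was -0.26 ± 0.15 (SE). Fabp5, a fatty acid carrier, stood at 6.97, 7.21 and 7.09 in wild-type and at 6.85, 6.46 and 7.01 in Tet2-/-, where replicate 6 lay within the wild-type range, and it differed by -0.32 ± 0.17 (SE). The related carrier Fabp4 differed by -0.20 ± 0.22. Npc1 and Npc2, which together export cholesterol from late endosomes, differed by -0.19 ± 0.22 and -0.18 ± 0.13 (SE).

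**Figure D4:**
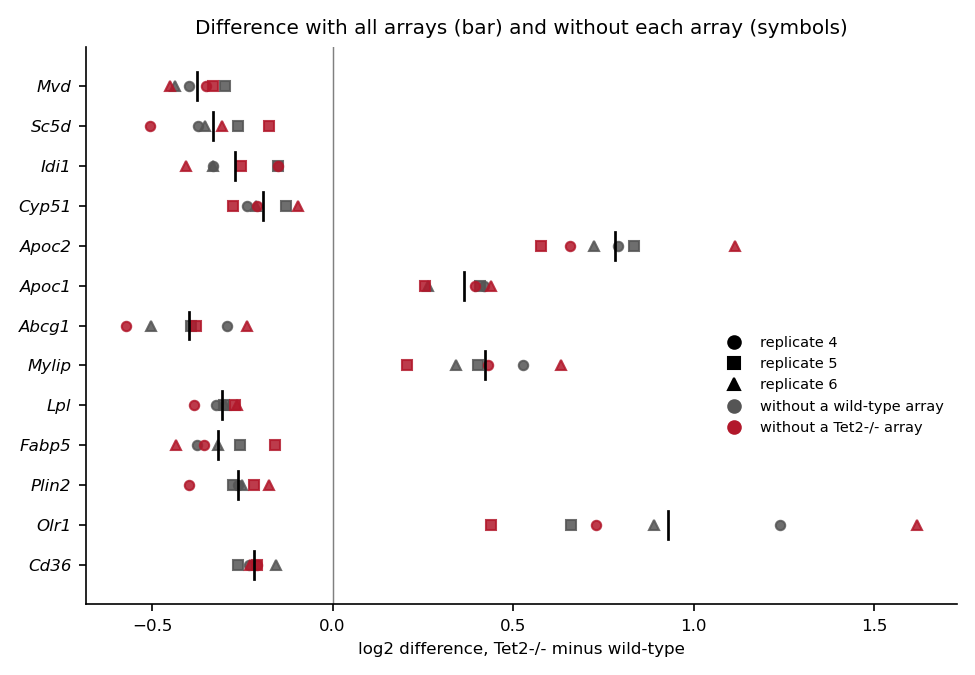
Log2 difference, Tet2-/- minus wild-type, of the same 13 genes with all arrays (bar) and with 1 array left out (symbols for the replicate, colours for the genotype of the array left out). None of these genes crosses 0, which is favoured by their choice for small p or groups that do not overlap. Other members did change direction. The widest spread is that of Olr1, from 0.44 to 1.62.

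The arms were compared within each array, as the mean deviation of their genes from each gene's mean over the 6 arrays. Synthesis minus efflux was 0.10, 0.32 and 0.07 in wild-type replicates 4, 5 and 6, and -0.21, -0.36 and 0.08 in Tet2-/-. Replicates 4 and 5 of Tet2-/- were below all wild-type arrays, and replicate 6 was inside their range. The group means were 0.163 ± 0.133 and -0.163 ± 0.227 (SD, n = 3), a difference of -0.33, which ranged from -0.45 to -0.23 when 1 array was left out. A value of 3 against 3 arrays cannot reach an exact permutation p below 0.1, and no p is given for these sums.

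Synthesis minus uptake was 0.05, 0.19 and -0.09 in wild-type and -0.13, -0.13 and 0.11 in Tet2-/-. The groups overlapped, and the difference of -0.10 was smaller than the SD of either group (0.140 and 0.135). It ranged from -0.18 to -0.03 when 1 array was left out. Efflux minus uptake was -0.06, -0.13 and -0.16 in wild-type and 0.08, 0.24 and 0.02 in Tet2-/-, so that all Tet2-/- arrays were above all wild-type arrays, with a difference of 0.23. That contrast was added to the planned pair after the values were seen. It was not recomputed with arrays left out or with grouping by the genotype field. Under that field the efflux median was -0.0117 and the uptake median 0.035, so its direction also rests on the titles.

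Replicates varied more in Tet2-/- than in wild-type. The median SD within a group was 0.170 in wild-type and 0.260 in Tet2-/- over the members, and 0.163 and 0.236 over probe sets above the median level. Tet2-/- replicate 5 was the highest of the 6 arrays for 9 of 12 LXR and efflux genes (75%), against 21.1% of the brighter probe sets. Tet2-/- replicate 6 was the lowest for 17 of the 40 members (42.5%), against 32.9% of the brighter probe sets. It held the lowest array mean of every arm, and also of the elicited macrophage (-0.42) and fatty acid synthesis (-0.41) lists. Its log2 levels had the narrowest interquartile range of the arrays, at 2.99 against 3.16 to 3.33 in the others. Whether that narrower range lowers the arms was not tested.

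Markers of several other cell types differed between the same arrays. Mean deviations of 8 resident peritoneal macrophage genes were -0.13, -0.62 and -0.52 in wild-type and 0.74, 1.01 and -0.48 in Tet2-/-. All 8 had higher means in Tet2-/-, and 4 had an unadjusted p under 0.05, against 3.61% of all probe sets. The 6 measured B cell markers gave -0.53, -0.50 and -0.30 against 0.46, 1.26 and -0.40, and the 5 monocyte markers -0.21, -0.64 and -0.52 against 0.42, 1.14 and -0.19. Higher means in Tet2-/- were found for 5 B cell and 4 monocyte markers, and lower ones for Blnk (-0.23) and Irf4 (-0.23). Replicates 4 and 5 of Tet2-/- were the highest arrays for each of these 3 lists, as they were for the LXR and efflux arm, Apoc2 and Olr1. The 7 measured markers of elicited macrophages gave 0.17, -0.17 and -0.13 against 0.21, 0.35 and -0.42, with the same highest and lowest arrays as the LXR and efflux arm. The mean of 4 eosinophil markers was lower in every Tet2-/- array than in any wild-type array, at 0.14, 0.22 and 0.12 against 0.04, -0.39 and -0.13. That separation rested on Siglecf, at -1.21 ± 0.26 (SE, limma unadjusted p = 0.0013, adjusted p = 0.879). Epx (0.03), Prg2 (-0.01) and Ccr3 (-0.07) were near 0 and below the median level of all probe sets. The median difference of the list was -0.04. Mean deviations of neutrophil (0.33), erythroid (0.30) and dendritic cell (0.24) markers were highest in Tet2-/- replicate 6. Mesothelial and fibroblast markers were highest in wild-type replicate 6 (0.32), and T and NK cell markers in wild-type replicate 5 (0.17). Mast cell markers were highest in Tet2-/- replicate 5 (0.11). Outside the mesothelial and fibroblast list, most of these genes were below the median level of all probe sets. The part of these cells in the results was not tested, and in bulk RNA a different share of a cell type and a different amount of RNA per cell cannot be told apart. The 5 measured adipocyte markers had mean log2 levels between 1.92 and 2.10 over the arrays.

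**Figure D5:**
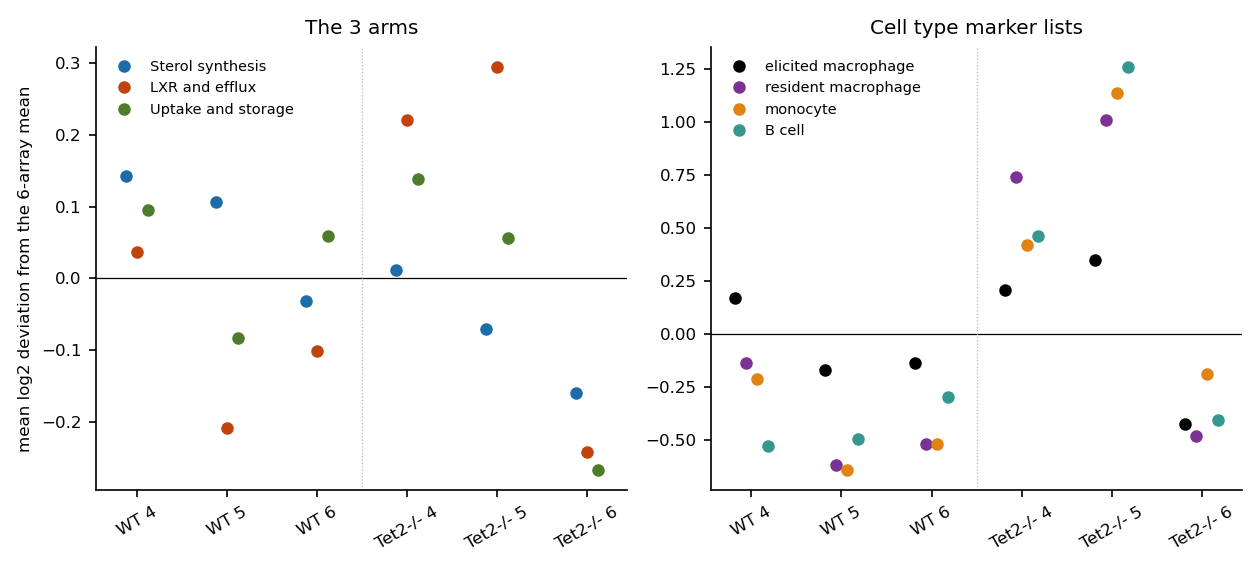
Mean log2 deviation from the mean of the 6 arrays, for the 3 arms (left) and for 4 lists of cell type markers (right), with 1 point per list and array; the vertical scales differ. Tet2-/- replicates 4 and 5 are high for the LXR and efflux arm (0.22 and 0.29) and for the resident macrophage, monocyte and B cell lists, and Tet2-/- replicate 6 is low for all 3 arms.

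Other genes of the same pathways were read from lists that do not overlap the members. Of 9 further sterol synthesis and SREBP-2 genes, 5 were lower and 4 higher, with a median of -0.04 and none at an unadjusted p under 0.05. When Tet2-/- replicate 6 was left out the median was 0.19 and 2 of 9 were lower. It was 0.05 when wild-type replicate 4 was left out and 0.01 when replicate 5 of that group was. The smallest p was that of Lbr, a sterol reductase of the inner nuclear membrane, at 0.31 ± 0.17 (SE), followed by Ggps1, which makes geranylgeranyl pyrophosphate, at 0.18, and Mbtps1, a protease that cleaves SREBP precursors, at 0.15.

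Of 10 further efflux and LXR genes, 7 were lower and 3 higher, with a median of -0.09 and none at an unadjusted p under 0.05. Without Tet2-/- replicate 6 the median was 0.03 and 4 were lower. Ch25h, which makes the oxysterol 25-hydroxycholesterol, differed by 0.27 ± 0.13 (SE), with every Tet2-/- array above every wild-type array. Such separation held for 3.33% of all probe sets. Ch25h was dim, at log2 levels between 2.53 and 3.00, and its mean was below the median level of all probe sets (2.81). Cyp27a1, which makes 27-hydroxycholesterol, differed by -0.26, and Rxra, the partner receptor of LXR, by -0.20.

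Of 22 further uptake and lipid handling genes, 15 were lower and 7 higher, with a median of -0.13. An unadjusted p under 0.05 was found for 2 of the lower and 1 of the higher, against 1.9% and 1.71% of all probe sets. Without Tet2-/- replicate 6 the median was -0.03 and 12 were lower, and without wild-type replicate 4 it was -0.08. Marco, a scavenger receptor, was higher by 0.72 ± 0.23 (SE, limma unadjusted p = 0.0117, adjusted p = 0.998) with no overlap. Plin3, another droplet coat protein, differed by -0.44 ± 0.17 (SE, limma unadjusted p = 0.031, adjusted p = 0.998), also with no overlap, and Lrp1, a large endocytic receptor, differed by -0.42 ± 0.18 (SE).

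Of 8 fatty acid synthesis genes, 5 were higher and 3 lower, with a median of 0.26. An unadjusted p under 0.05 was found for 1 of them, against 3.61% of all probe sets. When a Tet2-/- array was left out the median was 0.15 (replicate 4), 0.05 (replicate 5) or 0.45 (replicate 6), and when wild-type replicate 6 was left out it was 0.17. Fads2, a fatty acid desaturase, differed by 0.37 ± 0.15 (SE, limma unadjusted p = 0.0362, adjusted p = 0.998) with no overlap. Mlxipl, the glucose-responsive factor ChREBP, differed by 0.50, and Acaca, acetyl-CoA carboxylase, by 0.48, which was 0.07 without Tet2-/- replicate 5. None of these genes passed the adjusted threshold.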

How the data were processed

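RNA of 6 macrophage samples was measured on Affymetrix whole-transcript arrays. The deposited values are log2 levels of 25206 probe sets. The submitters' processing notes name RMA and affy 1.36.1. The log2 base was read from the range of the values and the method. RMA corrects background, normalizes by quantiles and summarises probes, and compresses differences of dim genes. Scanner files were not used here, so signal over background could not be checked.

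The platform's annotation named 1 gene for 23185 probe sets and none for 2021. Each was tested two-sided, without covariates, by lmFit and eBayes of limma 3.58.1 (R 4.3.3), with Benjamini-Hochberg adjustment over all of them and a threshold of 0.05. The script was tested on simulated data.

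Samples were not treated as paired by replicate number in the main fit. Deviations of same-numbered arrays correlated at 0.211, -0.299 and 0.213. Arrays with different numbers were not compared in this way, so whether the numbers mark pairs is not settled. The small number of arrays, 3 in each group, limits precision.

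Members and lists were chosen with earlier results of these data known. Values by array are given for the 4 genes of each arm with the smallest p and for genes whose groups did not overlap, as well as for Nr1h3, Abca1 and Apoe, which, like the mention of Apoc4, were added after their values were seen. Up to 3 genes with the smallest p are named from each other list. Arm medians and array means are given without a test. Alternatives were the genotype field as grouping, a replicate block, a variance trend, array weights, median centring, quantile normalization, a filter on dim probe sets, and each array left out. Promoter sequences are from RefSeq, GRCm38.p6.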

Additional observations from a re-analysis of the deposited data

How the results depend on the processing

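Grouping by the genotype field gave 0 calls, and 0 members and 1.64% of all probe sets had an unadjusted p under 0.05. This grouping gave 8 of 18 synthesis genes lower, medians of 0.0183 (synthesis) and 0.035 (uptake), and a synthesis minus efflux difference of 0.0143. It reversed 31 of the 52 named genes: Hmgcs1 (0.0133), Mvk (-0.28), Pmvk (-0.11), Mvd (0.09), Idi1 (0.15), Fdps (0.03), Cyp51 (0.23), Tm7sf2 (0.16), Nsdhl (0.16), Srebf2 (0.03), Insig1 (0.0233), Nr1h3 (0.18), Apoe (-0.05), Apoc1 (-0.05), Pltp (-0.0233), Scd1 (-0.18), Scd2 (-0.16), Cd36 (0.0833), Olr1 (-0.07), Scarb1 (-0.0167), Lpl (0.0733), Plin2 (0.0233), Npc1 (0.0467), Npc2 (0.0867), Ch25h (-0.18), Cyp27a1 (0.29), Rxra (0.0733), Marco (-0.21), Plin3 (0.04), Lrp1 (0.23), Fads2 (-0.25). With array weights 2 probe sets passed, and 10 members and 8.28% of all probe sets had an unadjusted p under 0.05, the synthesis median was -0.0418, and Fdft1 (0.0476), Nsdhl (0.0277), Srebf2 (0.10) and Insig1 (0.0179) turned. Median centring turned Pmvk (-0.0117), Srebf1 (-0.0117) and Scd2 (-0.015), and quantile normalization turned Srebf1 (-0.0072). The variance trend and the filter on dim probe sets each left 2 of 40 members (5%) at an unadjusted p under 0.05. The shares of the probe sets tested were 3.67% and 3.66%. The replicate block left 0 calls and 4 such members, against 3.56% of all probe sets, with Abcg1 in place of Lpl. The count over all probe sets was 910 at an unadjusted p of 0.05 and 0 at an adjusted p of 0.1.

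Leaving out 1 array gave 0 to 19 calls, the 19 without Tet2-/- replicate 6, and 0 to 11 members at an unadjusted p under 0.05. The share of all probe sets at that threshold ran from 2.51% to 9.87%. The synthesis median ranged from -0.187 to -0.034. Members whose direction changed were Mvk (-0.085 to 0.25), Pmvk (-0.0333 to 0.0817), Fdft1 (-0.15 to 0.0433), Sqle (-0.19 to 0.0567), Nsdhl (-0.33 to 0.0767), Srebf2 (-0.22 to 0.16), Insig1 (-0.23 to 0.0317), Stard4 (-0.0617 to 0.11), Srebf1 (-0.15 to 0.23), Scd2 (-0.18 to 0.18), Lpcat3 (-0.10 to 0.30), Scarb1 (-0.14 to 0.34), Npc1 (-0.32 to 0.0517). The cause of these changes was not tested. The efflux and uptake medians and the synthesis minus efflux difference kept their direction in every setting except the genotype field, under which the efflux median was -0.0117. Signal over background was not available, so dim genes may be understated.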
